A study of Arabidopsis thaliana with 27 samples.

Results

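The ATG8 genes of Arabidopsis thaliana encode the small ubiquitin-fold proteins that coat the autophagosome, the double membrane that carries cell contents to the vacuole. Members were the probe sets whose single gene symbol in the platform annotation is an ATG8 name, and 9 of the 22746 tested probe sets of the ATH1 array met this, 1 for each of 9 genes. All 9 genes were higher in dcl1-7 inflorescences than in 1 set of Col-0 inflorescences (17.2% of all probe sets were), 6 of the 9 were lower than in the other set (10.8%), and all 9 differed between the Col-0 sets, as did 47.7% of all probe sets. The direction of the dcl1-7 difference in inflorescence thus depended on the wild-type set.

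The study profiled inflorescences and leaves of mutants in small RNA pathways. Inflorescence groups, of stages 1 to 12, were dcl1-7 with its own labelled control (Col-0 set B), and dcl4-2 and rdr6-15 with theirs (Col-0 set A). Leaf groups were dcl1-7, dcl4-2, rdr6-15 and their shared Col-0 control, all from rosette leaves 5 to 8. Each of the 9 groups had 3 arrays, biological replicates that comprise 9 or more plants in the series' design text. Replicates are numbered here by sample order within a group, and equal numbers are not taken to pair arrays across groups. DCL1 cuts microRNAs from hairpin precursors, RDR6 makes double-stranded RNA, and DCL4 cuts that RNA into trans-acting siRNAs. The nature of each allele, the growth conditions and the harvest times are not stated in the labels, which name Col-0 as the wild type and give no background for the mutants.

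An ATG8 protein is made with residues that the protease ATG4 trims to expose a glycine. The E1-like enzyme ATG7 and the E2-like enzyme ATG3 then join that glycine to a membrane lipid, with help from the ATG12-ATG5-ATG16 complex, and the lipid-bound form recruits cargo receptors. In Arabidopsis ATG8A to ATG8D and ATG8E to ATG8G form sister groups by sequence, and ATG8H with ATG8I forms a separate group whose proteins already end at the glycine. Many ATG genes are known to be induced by carbon starvation and in senescing leaves.

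The members, by locus, were ATG8A (AT4G21980, written APG8A in the annotation), ATG8B (AT4G04620), ATG8C (AT1G62040), ATG8D (AT2G05630), ATG8E (AT2G45170), ATG8F (AT4G16520), ATG8G (AT3G60640), ATG8H (AT3G06420) and ATG8I (AT3G15580, written APG8H in the annotation and ATG8I in RefSeq). All 9 lay above the 40th percentile of mean signal over all 27 arrays, used as an alternative filter. Values are log2 RMA summaries, differences are on the log2 scale with the standard error (SE) of the limma fit, and called means a Benjamini-Hochberg adjusted p under 0.05 over all 22746 probe sets. A probe set's level depends on its probes, so levels were compared between groups and never between genes. How far probes of 1 member also bind RNA of its near-identical relatives was not tested.

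The median signal per array was 7.04 to 7.17 for inflorescences and 6.93 to 7.00 for leaves, and Pearson's r between arrays of the same group ranged over 0.980 to 0.998. Of the 12 leaf arrays 8 had their highest r with an array of another group, which none of the 15 inflorescence arrays had. Replicate 1 of dcl1-7 leaves was among the 8, and without it 4 ATG8 genes in place of 3 were called in dcl1-7 leaves. The tapetum markers A9 and AMS stood 5.30 and 3.56 above leaf in Col-0 set A inflorescences. No probe set carries DCL1, DCL4 or RDR6 as its single symbol, so the mutated genes were not used here to check the labels. The difference between 3′ and 5′ probe sets of actin and GAPDH, a sign of RNA quality, was 1.98 to 2.66 in 12 of the inflorescence arrays and 3.47 to 3.62 in the other 3, which are 1 array each of dcl1-7, Col-0 set B and dcl4-2. In leaf it was 3.13 to 4.14. In bulk tissue, fewer cells of a type and less RNA per cell cannot be told apart.

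**Figure D1:**
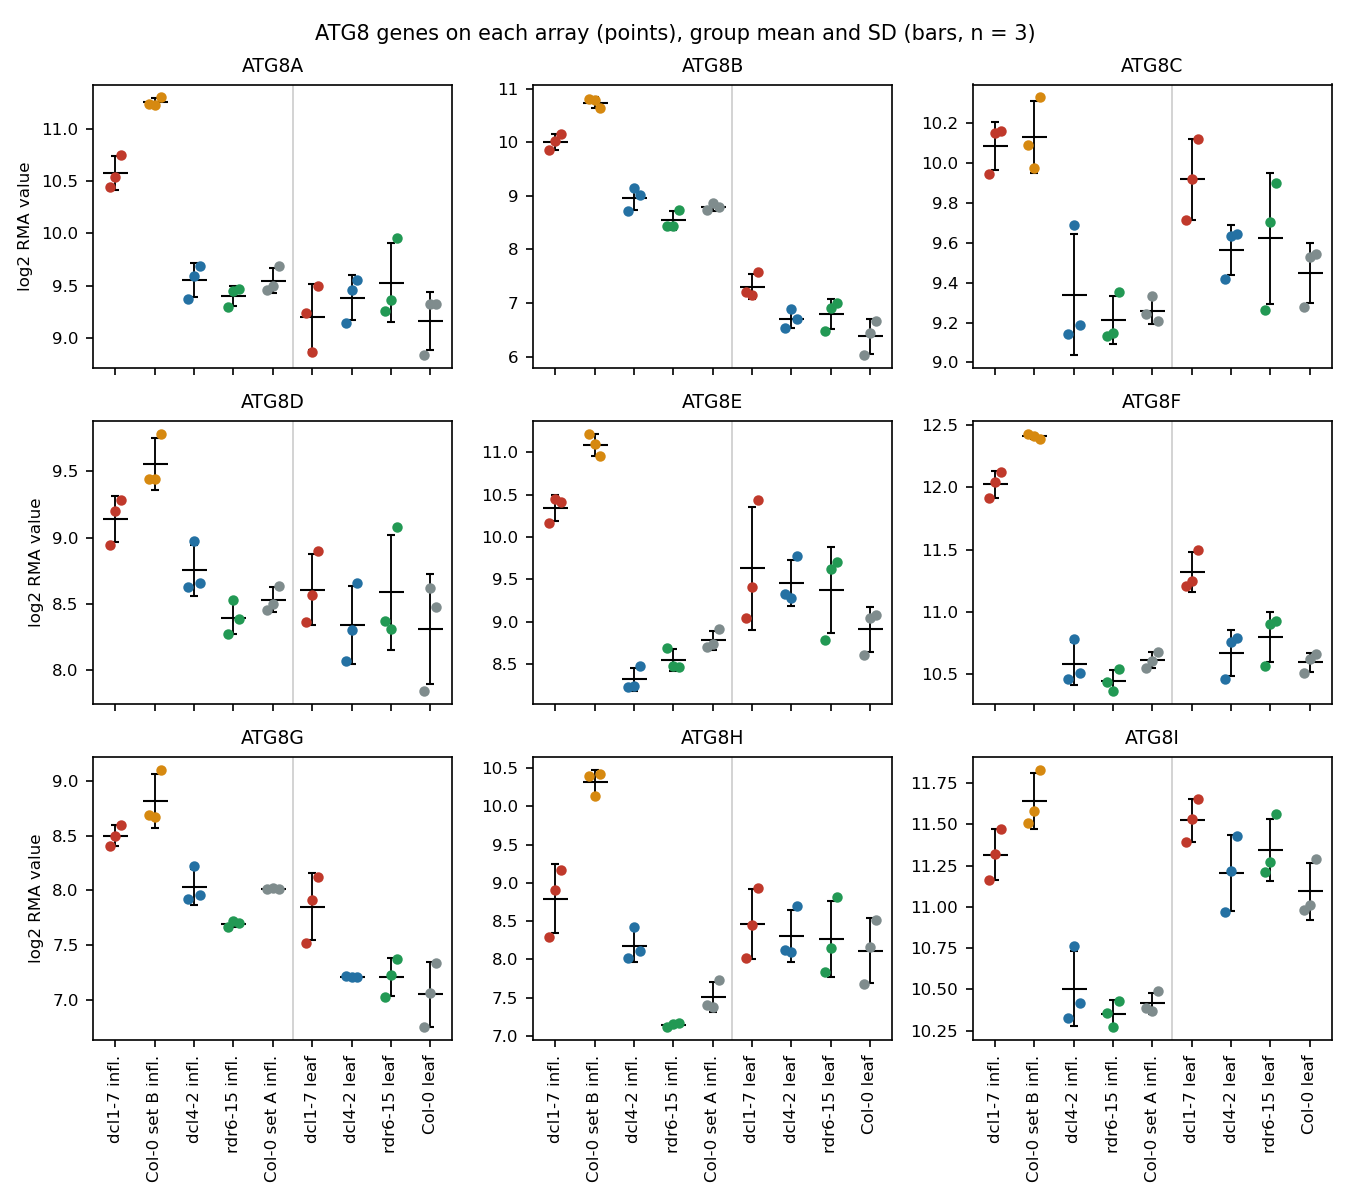
Log2 RMA value (y axis) of each ATG8 gene in the 9 groups (x axis), with inflorescence groups left of the line and leaf groups right of it. Points are arrays, and bars are the group mean and SD over 3 arrays. Col-0 set B has the highest group mean in 9 of 9 genes.

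The plot of values by group shows the order of the levels. Col-0 set B inflorescences had the highest group mean in 9 of 9 genes, and dcl1-7 inflorescences were second in 8 of 9. The exception was ATG8I, in which dcl1-7 leaves came second. The arrays of the first and second group overlapped in 2 genes, ATG8C and ATG8I. Between the third group and the next the arrays overlapped in 8 of 9 genes, so the lower positions are mostly not separated by the spread. The lowest mean was that of Col-0 leaves in 4 genes (ATG8A, ATG8B, ATG8D, ATG8G), rdr6-15 inflorescences in 4 (ATG8C, ATG8F, ATG8H, ATG8I) and dcl4-2 inflorescences in 1 (ATG8E). Averaged over the 9 genes after each was centred on its own mean, the groups ran from 1.34 in Col-0 set B and 0.76 in dcl1-7 inflorescences to -0.47 in rdr6-15 inflorescences and -0.54 in Col-0 leaves.

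The dcl1-7 inflorescences were first set against Col-0 set B, their labelled control. Of the 9 genes 6 were called lower in the mutant and none higher, where 10.8% of all probe sets were called lower and 23.4% in either direction. The median difference of the members was -0.42, against -0.01 over all probe sets. The 6 were ATG8A, ATG8B, ATG8D, ATG8E, ATG8F and ATG8H, and the mutant's arrays lay below those of set B in these and in ATG8G and ATG8I, 8 of 9 in all (15.3% of probe sets). Set against Col-0 set A instead, the same mutant arrays were higher in 9 of 9 genes, where 17.2% of probe sets were called higher and 35.2% in either direction. The median difference was then 1.03, against -0.02 over all probe sets. The arrays did not overlap in any of the 9 genes (22.7% of probe sets), and 5 genes were called and at least 2-fold higher (3.31% of probe sets). The 2 comparisons share the dcl1-7 arrays.

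ATG8H, of the group that ends at the glycine, had the largest fall against set B among the members. It read 8.29, 8.91 and 9.17 in dcl1-7 inflorescences, 10.40, 10.13 and 10.42 in Col-0 set B, and 7.41, 7.38 and 7.73 in Col-0 set A. The mutant's values thus lay between the Col-0 sets with no overlap on either side. ATG8H was 2.88-fold lower in dcl1-7 than in set B (difference -1.53, SE 0.19, adjusted p = 6.84e-05). Against set A it was 2.44-fold higher (1.28, SE 0.19, adjusted p = 0.000137).

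ATG8E, of the ATG8E to ATG8G group, had the largest rise against set A among the members. It read 10.17, 10.45 and 10.41 in dcl1-7 inflorescences, 11.22, 11.10 and 10.96 in set B, and 8.70, 8.73 and 8.91 in set A. It was 2.95-fold higher in dcl1-7 than in set A (1.56, SE 0.10, adjusted p = 2.31e-07) and lower than in set B by a difference of -0.75 (SE 0.10, adjusted p = 0.000194). Its close relative ATG8F read 11.91, 12.04 and 12.12 in dcl1-7, 12.43, 12.41 and 12.39 in set B, and 10.55, 10.61 and 10.68 in set A. ATG8F rose by 1.41 against set A (SE 0.08, adjusted p = 9.87e-08) and was -0.39 against set B (SE 0.08, adjusted p = 0.0046).

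ATG8A and ATG8B followed the same order. ATG8A read 10.44, 10.54 and 10.75 in dcl1-7, 11.24, 11.23 and 11.30 in set B, and 9.46, 9.50 and 9.69 in set A. Its differences were -0.68 against set B (adjusted p = 0.000247) and 1.03 against set A (adjusted p = 4.3e-06), both with an SE of 0.10. ATG8B read 9.85, 10.03 and 10.15 in dcl1-7, 10.81, 10.78 and 10.63 in set B, and 8.73, 8.87 and 8.79 in set A. In ATG8B the differences were -0.73 (adjusted p = 0.000538) and 1.21 (adjusted p = 4.72e-06), with an SE of 0.12. In neither gene did the 3 groups overlap.

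ATG8D was called lower against set B with a weaker margin. It read 8.94, 9.20 and 9.28 in dcl1-7, 9.44, 9.44 and 9.79 in set B, and 8.46, 8.50 and 8.64 in set A. Its difference was -0.42 against set B (SE 0.12, adjusted p = 0.0284) and 0.61 against set A (SE 0.12, adjusted p = 0.00179). Without dcl1-7 inflorescence replicate 1 or without Col-0 set B replicate 3 the call of ATG8D against set B was lost (adjusted p = 0.125 and 0.102).

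ATG8C, ATG8G and ATG8I did not pass the test against set B. ATG8C read 9.95, 10.15 and 10.16 in dcl1-7, 10.09, 9.98 and 10.33 in set B, and 9.24, 9.33 and 9.21 in set A. Its mutant and set B arrays overlapped (difference -0.05, SE 0.13, adjusted p = 0.873), while both lay above set A. ATG8G read 8.40, 8.50 and 8.60 in dcl1-7, 8.69, 8.67 and 9.10 in set B, and 8.01, 8.02 and 8.01 in set A. ATG8G differed by -0.32 from set B (SE 0.11, adjusted p = 0.0514) and by 0.49 from set A (SE 0.11, adjusted p = 0.00336). ATG8I read 11.16, 11.32 and 11.47 in dcl1-7, 11.51, 11.58 and 11.83 in set B, and 10.39, 10.37 and 10.49 in set A. ATG8I differed by -0.32 from set B (SE 0.12, adjusted p = 0.064) and by 0.90 from set A (SE 0.12, adjusted p = 5.55e-05).

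**Figure D2:**
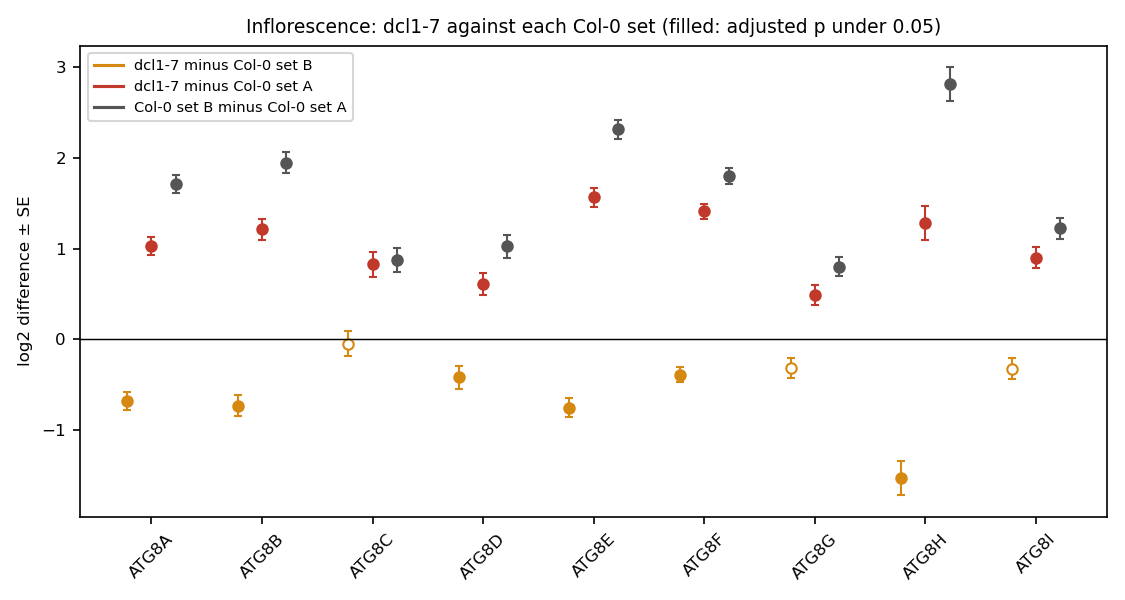
Log2 difference ± SE (y axis) for each ATG8 gene (x axis) in inflorescence: dcl1-7 minus Col-0 set B, dcl1-7 minus Col-0 set A, and Col-0 set B minus Col-0 set A, with filled points at adjusted p under 0.05. The 9 points against set A are filled and above 0, and the 9 points against set B are below 0 with 6 filled.

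The Col-0 sets were therefore compared with each other. Both are labelled as wild-type inflorescences of the same stages, and all 9 ATG8 genes were called higher in set B than in set A, where 22.6% of probe sets were called higher and 47.7% in either direction. The median difference was 1.71, against -0.004 over all probe sets, and adjusted p ran from 1.78e-09 to 0.000113. Of the 9 genes 7 were called and at least 2-fold higher in set B, against 6.84% of probe sets, and the arrays of the sets did not overlap in any of the 9 (27.4% of probe sets were higher without overlap). ATG8H was 7.02-fold higher in set B (2.81, SE 0.19), ATG8E 4.97-fold (2.31, SE 0.10), ATG8B 3.85-fold and ATG8F 3.47-fold. The smallest differences were those of ATG8G (0.80) and ATG8C (0.87), with ATG8A, ATG8D and ATG8I at 1.71, 1.03 and 1.22. The 3 arrays of set B lay above the other 12 inflorescence arrays in 8 of 9 genes, all but ATG8C (10.6% of probe sets). They lay above the other 24 arrays, leaves included, in 7 of 9, all but ATG8C and ATG8I (5.34%).

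On the way from set A to set B on the log2 scale, the mean of dcl1-7 inflorescences stood at 45.7% for ATG8H and 94.7% for ATG8C. The other 7 genes lay between 59.5% (ATG8D) and 78.5% (ATG8F). These positions describe the group means and were not tested. What set the Col-0 sets apart (harvest, growth, hybridisation) is not given in the labels, and the set cannot be told apart from any such factor.

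Without the 3 inflorescence arrays of high 3′ to 5′ difference, an alternative added after seeing the data, 8 members were called lower against set B, 9 higher against set A, and 9 higher in set B than in set A. The dcl1-7 differences from set A were positive in 9 of 9 genes without those arrays too. Within a group the members' values were often lowest or highest on the same array. Replicate 1 of dcl1-7 inflorescences gave the lowest of its group's values in 9 of 9 genes, and replicate 3 the highest in 8 of 9. Replicate 3 of set B gave the highest of its group in 6 of 9. Both of these replicates 3 are arrays of high 3′ to 5′ difference. How many of all probe sets were lowest or highest on these arrays is not given. Leaving out single arrays gave 5 to 8 members called lower against set B. No share of all probe sets is given for the fits without arrays, so these counts cannot be set against one.

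Of the other autophagy genes on the lists, 10 of 32 had a probe set with a single symbol, so the counts stand for those 10. They were 6 genes of the ATG1 kinase complex, which starts autophagosome formation, ATG14A of the PI3K complex, and ATG3, ATG4B and ATG16 of the ATG8 conjugation machinery. None of the 6 listed cargo receptors and none of the 10 genes of the ATG9 and ATG2-ATG18 group was among them. The 10 genes had a median difference of -0.16 from Col-0 set B in dcl1-7 inflorescences. Of them 3 were called lower (10.8% of all probe sets) and none higher. These were ATG14A (-0.57, SE 0.10, adjusted p = 0.000895), ATG101, a subunit of the ATG1 complex (-0.51, SE 0.09, adjusted p = 0.00169), and the protease gene ATG4B (-0.29, SE 0.08, adjusted p = 0.0202). Against set A, 5 of the 10 were called higher (17.2% of all probe sets) and none lower, with a median of 0.25. They were ATG101 (0.54), ATG1T (0.54), a kinase gene of the ATG1 complex, ATG16 (0.42), ATG4B (0.33) and ATG3 (0.29). Between the Col-0 sets the median was 0.53, and 6 of 10 were called higher in set B (22.6% of probe sets) and none lower. ATG101 (1.05) and ATG14A (0.79) had the largest of these differences, while ATG1A, ATG1B, ATG1C and ATG13B stayed within 0.03 to 0.25 and did not pass.

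**Figure D3:**
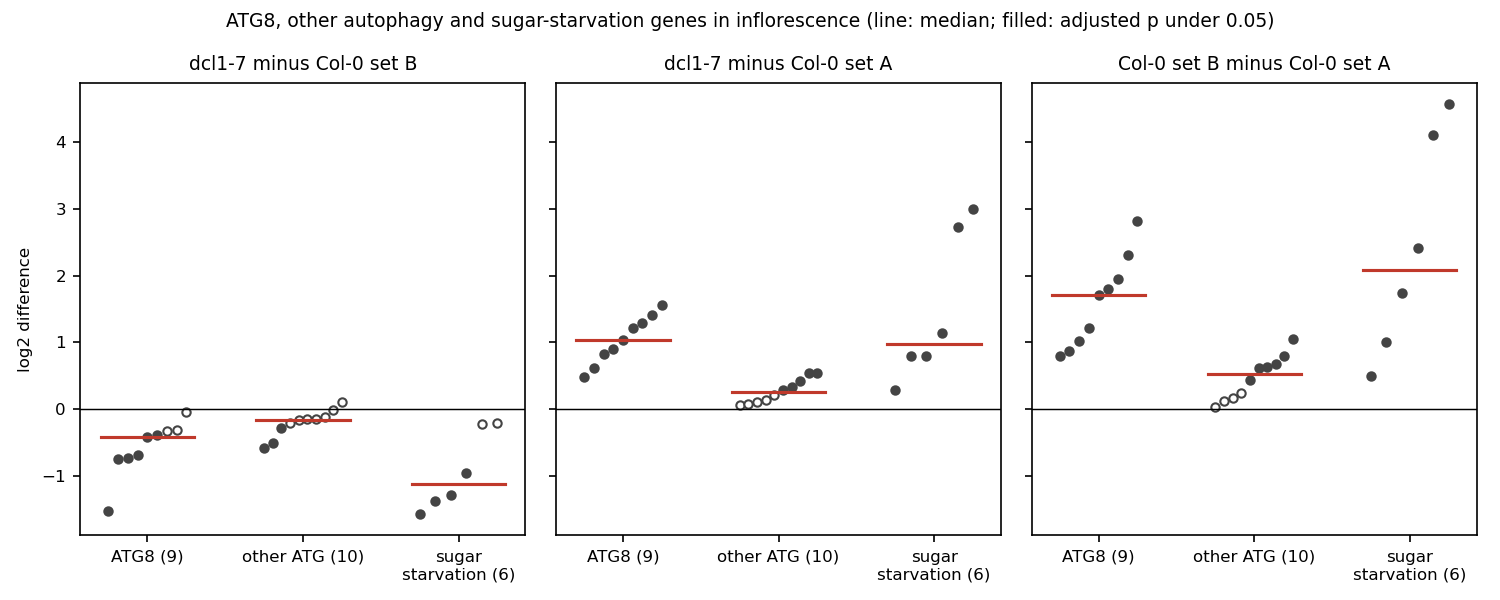
Log2 differences (y axis) of the 9 ATG8 genes, the 10 other measured autophagy genes and the 6 measured sugar-starvation genes in inflorescence, 1 panel per comparison. Points are genes, filled at adjusted p under 0.05, and the line is the list's median, which for ATG8 is -0.42, 1.03 and 1.71 in the panels from left to right.

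Genes known to rise when sugar runs out were listed beside the family, and 6 of 21 were measured. All 6 were called higher in set B than in set A (22.6% of all probe sets were), with a median difference of 2.08. IVD, an enzyme of leucine breakdown, averaged 11.96 ± 0.21 in set B and 7.39 ± 0.08 in set A (SD, n = 3 each), a difference of 4.58 (SE 0.17, adjusted p = 3.94e-10). MCCA and MCCB, the subunits of the carboxylase of the same pathway, differed by 4.11 and 1.74 (adjusted p = 5.64e-10 and 1.49e-07). ETFQO, which passes electrons from that breakdown to ubiquinone, differed by 2.42 (adjusted p = 2.81e-10). In dcl1-7 inflorescences all 6 were called higher than in set A (17.2% of all probe sets were), with a median of 0.97. IVD averaged 10.39 ± 0.32 in dcl1-7 (SD, n = 3). Against set B, 4 of the 6 were called lower (10.8% of all probe sets were), with a median of -1.12. IVD stood at -1.58, MCCA at -1.38, ETFQO at -1.28 and MCCB at -0.95. The SnRK1 and TOR list had 2 of 6 measured. RAPTOR1A, a partner of the TOR kinase, was -0.73 in set B against set A (adjusted p = 2.29e-05), and its relative RAPTOR1B was 0.37 (adjusted p = 0.0111). Of the senescence list 3 of 12 were measured, and SAG101 (1.06) and the transcription factor gene WRKY53 (0.62) were called higher in set B than in set A, while SAG29 was at -0.41 and did not pass. In dcl1-7 against set A, SAG101 was called higher (0.45) and WRKY53 lower (-1.02), and against set B both were called lower (-0.61 and -1.64). SAG29 did not pass in either (-0.25 and 0.15).

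Markers of flower parts also differed between these groups, but not all in the order of the ATG8 genes. Their part in the ATG8 result was not tested. In set B against set A, the carpel gene SPT (1.19) and the ovule gene INO (0.73) were called higher. These are 2 of the 2 measured floral organ markers, where 22.6% of all probe sets were called higher. The tapetum marker A9 (-1.08) and the pollen-expressed actin genes ACT11 (-1.09) and ACT12 (-0.48) were called lower, and the tapetum regulator AMS was at -0.60 and did not pass. ACT11 was 0.50 higher in set A inflorescences than in Col-0 leaves, where it averaged 9.06, so its signal is not confined to flowers. A9 ranged over 9.97 to 10.44 in set B and 11.11 to 11.54 in set A. In dcl1-7 against set A, A9 (-0.86), AMS (-0.93), ACT11 (-0.89) and ACT12 (-0.58) were called lower, as were 18.1% of all probe sets. SPT (0.77) and the leaf gene LHCB4.2 (0.46) were called higher there, as were 17.2% of all probe sets. INO was at -0.33 and RCA at -0.10, and neither passed. Against set B, none of the 4 tapetum and pollen markers was called, and SPT (-0.42) and INO (-1.06) were called lower, as were 10.8% of all probe sets. The leaf gene LHCB4.2, of the light-harvesting antenna, was called higher in set B than in set A (0.37), and the other leaf marker, RCA, was not. LHCB4.2 averaged 13.30 in set B and 13.41 in Col-0 leaves, and RCA 13.49 and 13.85. INO averaged 7.44 in set B, 6.71 in set A and 6.38 in dcl1-7 inflorescences, against 6.43 in Col-0 leaves. Like ACT11, these genes thus do not separate the organs sharply. No defining marker reads 0 on an RMA scale, and only 2 markers of each list had a probe set with a single symbol.

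In leaves 3 of the 9 ATG8 genes were called higher in dcl1-7 than in Col-0 and none lower, where 4.18% of probe sets were called higher and 9.42% in either direction. The difference was above 0 in 9 of 9 genes, with a median of 0.47 against 0.015 over all probe sets. An unadjusted p under 0.05 was reached by 6 genes and by 23.8% of all probe sets. The 3′ to 5′ difference was 3.81, 4.14 and 3.68 in dcl1-7 leaves, against 3.39, 3.42 and 3.70 in Col-0 leaves, so 2 of the 3 mutant arrays lay above every Col-0 array, and its part in the leaf result was not tested.

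ATG8B read 7.20, 7.14 and 7.58 in dcl1-7 leaves, against 6.03, 6.44 and 6.67 in Col-0 leaves. It was 1.90-fold higher in the mutant (0.93, SE 0.19, adjusted p = 0.0102). Its Col-0 leaf signal was weak, at percentiles 35.2, 42.3 and 45.4 of the arrays. ATG8F read 11.21, 11.25 and 11.50 in dcl1-7 leaves, against 10.51, 10.62 and 10.66 in Col-0 leaves. Its rise was 1.65-fold (0.72, SE 0.13, adjusted p = 0.0056). ATG8G read 7.52, 7.91 and 8.12 in dcl1-7 leaves, against 6.75, 7.07 and 7.34 in Col-0 leaves. ATG8G was 1.74-fold higher (0.80, SE 0.17, adjusted p = 0.0131). In each of ATG8B, ATG8F and ATG8G the mutant's lowest array lay above the highest Col-0 array. The same held for ATG8C and ATG8I, which were not called, and for 2513 of the 22746 probe sets.

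The 6 genes other than ATG8B, ATG8F and ATG8G did not pass. ATG8E had a difference as large as that of ATG8F (0.72) but read 9.04, 9.41 and 10.44 in dcl1-7 leaves, against 8.61, 9.04 and 9.08 in Col-0 leaves, and its adjusted p was 0.21 with an SE of 0.33. ATG8C was at 0.47 (adjusted p = 0.0991), ATG8I at 0.43 (adjusted p = 0.0866), ATG8H at 0.35, ATG8D at 0.29 and ATG8A at 0.04. Array replicate 3 of dcl1-7 leaves gave the highest value of its group in 9 of 9 genes, and Col-0 leaf replicate 1 the lowest of its group in 9 of 9. Without either of these arrays the call of ATG8G was lost (adjusted p = 0.0554 without dcl1-7 leaf replicate 3, 0.0575 without Col-0 leaf replicate 1), while ATG8B and ATG8F stayed called without any single array (highest adjusted p 0.0458 and 0.0302). Of the 10 other autophagy genes, ATG1A (0.55, adjusted p = 0.0455), a kinase gene of the ATG1 complex, and ATG4B (0.47, adjusted p = 0.0269) were called higher in dcl1-7 leaves. For all probe sets the share called higher was 4.18%. None of the 6 sugar-starvation genes was called in leaves (median 0.10), and of the markers ACT11 was called lower (-1.18, adjusted p = 0.0159). The share of all probe sets called lower in dcl1-7 leaves was 5.24%.

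**Figure D4:**
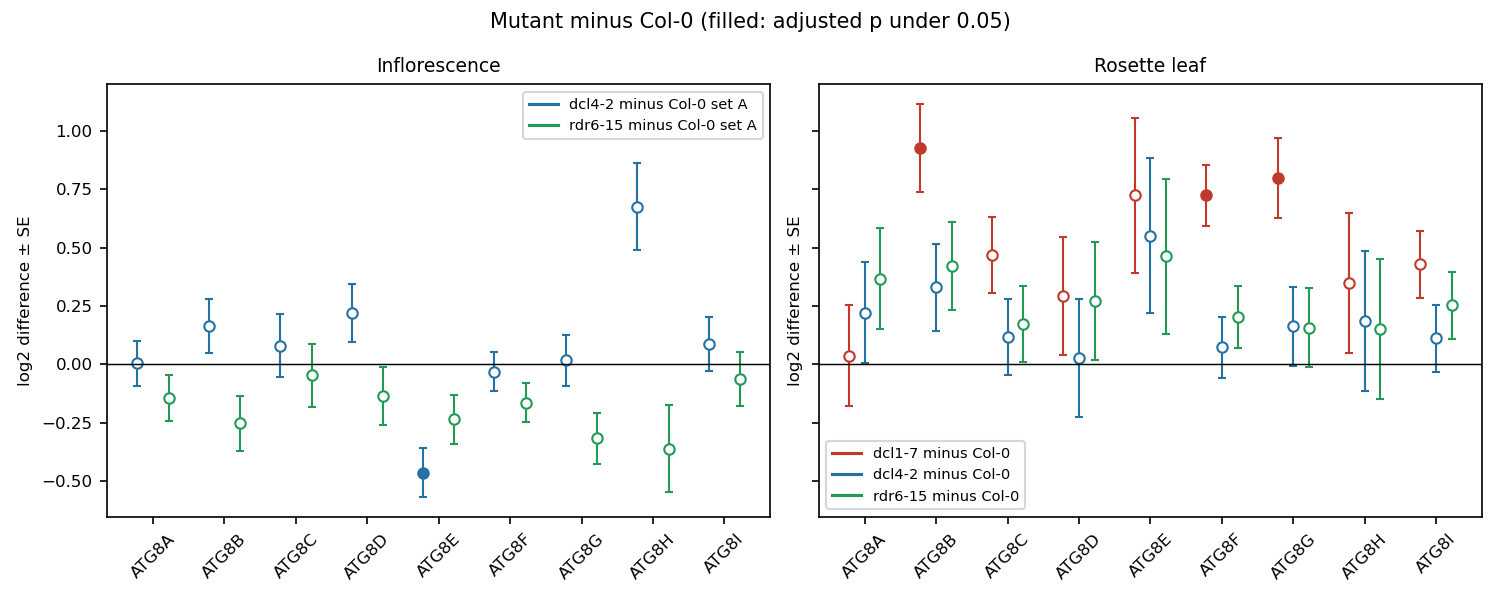
Log2 difference ± SE (y axis) of each ATG8 gene (x axis), mutant minus Col-0, in inflorescence for dcl4-2 and rdr6-15 and in leaf for all 3 mutants, with filled points at adjusted p under 0.05. Filled points are ATG8B, ATG8F and ATG8G in dcl1-7 leaves and ATG8E in dcl4-2 inflorescences.

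In the siRNA-pathway mutants few ATG8 genes passed the test. In dcl4-2 leaves 0 of 9 genes were called by limma and 0 had an unadjusted p under 0.05, where 0.0% of probe sets were called and 2.87% had an unadjusted p under 0.05. Differences ran from 0.03 (ATG8D) to 0.55 (ATG8E), all 9 above 0, and each adjusted p was 1. In rdr6-15 leaves 0 of 9 were called by limma and 1, ATG8B (0.42, SE 0.19), had an unadjusted p under 0.05, where 0.0176% of probe sets were called and 3.40% had an unadjusted p under 0.05. Differences there ran from 0.15 (ATG8H) to 0.46 (ATG8E), all 9 above 0, and all leaf comparisons share the Col-0 arrays.

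In dcl4-2 inflorescences 1 of 9 genes, ATG8E, was called lower than in Col-0 set A and none higher, where 0.972% of probe sets were called lower and 2.08% in either direction. ATG8E read 8.23, 8.24 and 8.48 in dcl4-2, against 8.70, 8.73 and 8.91 in set A, with no overlap (-0.46, SE 0.10, adjusted p = 0.04; 9.86% of probe sets were lower without overlap). Leaving out dcl4-2 inflorescence replicate 1, dcl4-2 inflorescence replicate 2 or any 1 of the 3 set A arrays ended this call (adjusted p between 0.0954 and 0.158), while it stayed without dcl4-2 replicate 3 (0.0319). ATG8H read 8.01, 8.42 and 8.11 in dcl4-2, against 7.41, 7.38 and 7.73 in set A, also with no overlap (11.2% of probe sets were higher without overlap), but it did not pass (0.68, SE 0.19, adjusted p = 0.0912). The other 7 genes lay between -0.03 (ATG8F) and 0.22 (ATG8D). Replicate 2 of dcl4-2 inflorescences, an array of high 3′ to 5′ difference, gave the highest value of its group in 7 of 9 genes and replicate 1 the lowest in 9 of 9. Without the 3 arrays of high 3′ to 5′ difference ATG8E was not called (adjusted p = 0.0612). Of the sugar-starvation genes SEN5 was called lower in dcl4-2 inflorescences (-1.60, adjusted p = 0.000119), as was WRKY53 of the senescence list (-1.33, adjusted p = 0.00879).

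In rdr6-15 inflorescences 0 of 9 genes were called by limma against Col-0 set A, where 8.66% of probe sets were called. All 9 differences lay below 0, from -0.05 (ATG8C) to -0.36 (ATG8H), with a median of -0.16 against 0.02 over all probe sets, and 3 genes (ATG8B, ATG8E, ATG8G) had an unadjusted p under 0.05, as did 5009 of the 22746 probe sets. ATG8G read 7.67, 7.72 and 7.70 in rdr6-15, against 8.01, 8.02 and 8.01 in set A. Its arrays did not overlap (-0.32, SE 0.11, adjusted p = 0.0964), nor did those of ATG8E, ATG8F and ATG8H, and 14.6% of probe sets were lower without overlap. ATG8G was called when the fit held the compared groups alone (adjusted p = 0.00386), with array weights (0.00221) and after quantile normalization (0.0306). Its SD was only 0.0064 in set A and 0.0279 in rdr6-15, against a median of 0.13 over all members and inflorescence groups. Leaving out single arrays gave limma adjusted p of 0.186 to 0.21, so it was not called. None of the 10 other autophagy genes was called in dcl4-2 or rdr6-15 in either organ. In rdr6-15 inflorescences the pollen-expressed ACT11 (-0.46) and ACT12 (-0.64) were called lower than in set A. Of the senescence list WRKY53 (-0.92) and SAG29 (-0.72) were also called lower, while SAG101 was at 0.22 and did not pass. Of all probe sets 4.49% were called lower there.

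Wild-type inflorescences and leaves were compared in a fit of all 27 arrays, once for each Col-0 set. The 3′ to 5′ difference was 2.245 to 2.396 in set A and 1.984 to 3.469 in set B, against 3.391 to 3.695 in Col-0 leaves. Its part in these comparisons was not tested. Against leaf, Col-0 set A had 2 ATG8 genes called higher and 2 lower, where 31.5% of probe sets were called higher, 28.5% lower and 60.0% in either direction. ATG8B was 5.33-fold higher in set A inflorescences than in leaves (2.42, SE 0.16, adjusted p = 1.21e-11) and ATG8G 1.95-fold (0.96, SE 0.15, adjusted p = 5.41e-06). The leaf signal of ATG8B was weak, at percentiles 35.2 to 45.4 of the Col-0 arrays. ATG8H (-0.61, SE 0.26, adjusted p = 0.0485) and ATG8I (-0.68, SE 0.13, adjusted p = 0.000132), the members of the group that ends at the glycine, were lower. The call of ATG8H was lost without any 1 of set A replicates 1 and 2 or Col-0 leaf replicates 2 and 3 (adjusted p = 0.119, 0.123, 0.0992 and 0.227 in that order). ATG8A, ATG8C, ATG8D, ATG8E and ATG8F did not pass (-0.19 to 0.39). Centring each array on its median moved the median of all probe sets by -0.16 in this comparison, and ATG8F was then -0.15 in place of 0.02.

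Against the same leaves, Col-0 set B had all 9 ATG8 genes called higher, where 28.3% of probe sets were called higher and 58.9% in either direction. Adjusted p ran from 4.01e-16 to 0.00114. ATG8B was 20.5-fold higher (4.36, SE 0.16), ATG8H 4.60-fold, ATG8E 4.55-fold, ATG8A 4.27-fold, ATG8F 3.51-fold, ATG8G 3.40-fold and ATG8D 2.37-fold. The fold of ATG8B rests on the same weak leaf signal. ATG8C (0.68) and ATG8I (0.55) had the smallest differences. ATG8H and ATG8I were thus called in opposite directions with the 2 Col-0 sets, whereas ATG8B and ATG8G were called higher in inflorescence with both.

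Whether the dcl1-7 effect differed between organs was tested as an interaction in the same fit. The 3′ to 5′ difference was 2.126 to 3.564 in dcl1-7 inflorescences and 3.678 to 4.144 in dcl1-7 leaves, and its part was not tested. With Col-0 set B, 7 of 9 genes had a lower effect in inflorescence than in leaf, where 9.64% of probe sets were called lower and 22.3% in either direction. These were ATG8H (-1.87, SE 0.37, adjusted p = 0.0007), ATG8B (-1.66, SE 0.23, adjusted p = 1.4e-05), ATG8E (-1.47, SE 0.36), ATG8G (-1.12, SE 0.20), ATG8F (-1.11, SE 0.15), ATG8I (-0.75, SE 0.19) and ATG8A (-0.72, SE 0.24). The call of ATG8A was lost without any 1 of 8 arrays (adjusted p 0.0502 to 0.122), which were dcl1-7 inflorescence replicates 1 and 2, the 3 replicates of set B, dcl1-7 leaf replicates 1 and 3, and Col-0 leaf replicate 1. With set A, 2 of 9 had a higher effect in inflorescence than in leaf, ATG8A (0.99, SE 0.24, adjusted p = 0.00655) and ATG8F (0.69, SE 0.15, adjusted p = 0.00332), where 8.76% of probe sets were called higher and 16.7% in either direction. ATG8A and ATG8F thus differed between organs in opposite directions with the 2 sets. The effects of dcl4-2 and rdr6-15 did not differ between organs by limma in any of the 9 genes, where 0.224% and 2.45% of probe sets were called. An unadjusted p under 0.05 was reached by 1 gene for dcl4-2 (ATG8E, -1.01, adjusted p = 0.455) and by 4 for rdr6-15, where 6.92% and 13.4% of all probe sets reached it.

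The genes whose pattern was most like the family's were taken from the 5190 with a single symbol and group means spanning at least 1. Likeness was Pearson's r between the 9 group means of a gene and the family's mean profile. The highest r were those of AT4G16330 (0.989), AT1G73380 (0.988), the glyoxalase gene GLX2-5 (0.988), AT5G01800 (0.987) and AT2G20740 (0.987). The 9 points come from the same arrays as the family's, and the values only describe a pattern in which Col-0 set B and dcl1-7 inflorescences stand highest.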

How the data were processed

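Arabidopsis ATH1 arrays (27, in 9 groups of 3 by their labels) were analysed as deposited. The authors' deposited values are log2 expression summaries made with RMA, per the submitters' processing notes. Which RMA version was used, and whether leaves and inflorescences were normalized in 1 run, is not stated there. RMA shrinks differences between weak signals and gives arrays like distributions, which hides a shift of all transcripts.

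Of 22810 probe sets, 64 controls were left out and 22746 tested without a filter. GEO's platform annotation gave 1 symbol for 13513 of them, several for 503 and none for 8730, and 13436 matched a locus of RefSeq assembly TAIR10.1. The limma functions lmFit and eBayes (limma 3.58.1, R 4.3.3) fitted group means, in 1 fit for the 15 inflorescence arrays, 1 for the 12 leaf arrays, and 1 for all 27 where organs were compared. Adjusted p is Benjamini-Hochberg over 22746. The labels name the control of each mutant, and dcl1-7 inflorescences were also set against Col-0 set A. Arrays carry no read depth, and their number limits the precision. On simulated data with 200 genes changed by 1 on the log2 scale, 85% were recovered in the leaf fit and 93% in the inflorescence fit. False calls numbered 9 and 12. The largest ATG8 difference in dcl1-7 leaves was 0.93, so these rates do not give the power for smaller differences.

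Members and gene lists were chosen with earlier results of these data known. Every ATG8 probe set is named, and of other lists at most the 4 smallest p per comparison or all called genes where 4 or fewer, beside range ends and values of the same genes in other comparisons; ATG16, ATG4B and others given in full lists were named after their values were seen. Alternatives were 1 fit of all arrays, the compared groups alone, array weights, a trended robust variance, a filter on weak probe sets, median centring, quantile normalization, single arrays left out and, added after seeing the data, the 3 inflorescence arrays of high 3′ to 5′ difference left out.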

Additional observations from a re-analysis of the deposited data

Results flagged for a closer look

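The effect of dcl1-7 (mutant minus Col-0) differed between inflorescence and leaf in 7 ATG8 genes with Col-0 set B, by the interaction test of the limma fit of all 27 arrays. The differences, inflorescence minus leaf on the log2 scale, were -0.7183 for ATG8A, -1.657 for ATG8B, -1.4737 for ATG8E, -1.11 for ATG8F, -1.1157 for ATG8G, -1.874 for ATG8H and -0.7533 for ATG8I. With Col-0 set A the same test gave 0.991 for ATG8A and 0.6867 for ATG8F, both with the larger effect in inflorescence. ATG8A and ATG8F therefore carried opposite signs with the 2 sets. The call of ATG8A with set B was the least firm, with an adjusted p of 0.0363 and up to 0.122 when single arrays were left out.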

How the results depend on the processing

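Over 126 differences of single ATG8 genes and 1872 values of them under the alternatives, 1751 kept their direction and side of the threshold, 41 passed it newly, 29 no longer passed it and 51 reversed. Leaving out single arrays, the genes called numbered 9 to 9 for dcl1-7 inflorescences against set A (also set B against set A and set B against leaf), 5 to 8 for dcl1-7 against set B, 2 to 4 in dcl1-7 leaves, 0 to 1 in dcl4-2 inflorescences, 3 to 4 for set A against leaf, 6 to 8 and 2 to 4 for the dcl1-7 interaction with set B and set A, 0 to 1 for the rdr6-15 interaction, and 0 to 0 for the rest. No share of all probe sets is given for any of the alternatives. The dcl1-7 leaf count was 5 in 1 fit of all arrays and 5 with array weights. The dcl4-2 inflorescence count was 0 in 1 fit of all arrays, 0 with the compared groups alone, 0 without the 3 arrays of high 3′ to 5′ difference, and 2 with array weights. The rdr6-15 inflorescence count, 0 as reported, was 2 with the compared groups alone, 3 with array weights and 1 with quantile normalization.

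Reversals were of small differences. With array weights ATG8D in dcl4-2 leaves was -0.0393, ATG8C in dcl1-7 against set B 0.0606, and in dcl4-2 inflorescences ATG8A, ATG8C, ATG8G and ATG8I were -0.0114, -0.0407, -0.0524 and -0.0114. Without the 3 arrays of high 3′ to 5′ difference ATG8C in dcl1-7 against set B was 0.015, and ATG8A, ATG8C, ATG8G and ATG8I in dcl4-2 inflorescences were -0.0153, -0.0937, -0.0767 and -0.0417. In dcl4-2 inflorescences ATG8A was also -0.0015 after centring, and ATG8A and ATG8G were -0.0307 and -0.0136 after quantile normalization. ATG8F in set A against leaf was -0.1475 after centring. Without single arrays the ranges across 0 were -0.124 to 0.2048 (ATG8A, dcl1-7 leaf), -0.2073 to 0.1822 (ATG8D) and -0.0323 to 0.3852 (ATG8H) in dcl4-2 leaf, -0.123 to 0.364 (ATG8H, rdr6-15 leaf) and -0.1243 to 0.0522 (ATG8C, dcl1-7 against set B). In dcl4-2 inflorescences they were -0.0628 to 0.0932 (ATG8A), -0.0937 to 0.1803 (ATG8C), -0.1283 to 0.0317 (ATG8F), -0.0767 to 0.0748 (ATG8G) and -0.0417 to 0.1733 (ATG8I). For set A against leaf they were -0.019 to 0.3705 (ATG8D) and -0.0267 to 0.0483 (ATG8F), and for the dcl4-2 interaction -0.3107 to 0.0078 (ATG8B), -0.21 to 0.064 (ATG8C), -0.2872 to 0.0053 (ATG8G) and -0.155 to 0.085 (ATG8I). The cause of these changes was not tested. No paired analysis was possible because the labels give no replicate numbers within groups. A stricter rule on RNA quality, a 3′ to 5′ difference above all other arrays by more than 1, would leave out no array. No fit was therefore made with it. The 3 high inflorescence arrays lie close together (3.47 to 3.62) and leaf arrays reach 4.14, so this rule could not single one out.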
